A study of Homo sapiens with 15 samples.

Results

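The genes described here are MYC and 39 genes of ribosome biogenesis, 40 in all, taken by symbol from a table of read counts for 18858 genes in the human breast cancer line MDA-MB-231. All 40 were in the table. They were grouped by role into MYC (1 gene), RNA polymerase I and its factors (5), box C/D ribonucleoproteins (3), box H/ACA ribonucleoproteins (3), nucleolar chaperones and scaffolds (4), the small subunit processome (9), maturation of the 40S subunit (5) and assembly of the 60S subunit (10).

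Ribosomes are built in the nucleolus, where RNA polymerase I transcribes the long precursor of ribosomal RNA, small nucleolar ribonucleoproteins modify it, and assembly factors cut, fold and pack it into the small and the large subunit. MYC is a transcription factor that binds DNA with its partner MAX at the E-box and is known as an activator of many genes of this pathway. YAP and its paralog TAZ (gene WWTR1) are co-activators of the Hippo pathway that act mainly through TEAD DNA-binding proteins.

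MDA-MB-231 is an established line derived from a triple-negative breast adenocarcinoma. The 5 groups held 3 libraries each, and a library is named here by its group and number. Control cells were not transfected (libraries 16, 21 and 26), and siControl cells received a non-targeting siRNA pool (17, 22 and 27). siYAP cells received a pool of siRNAs against YAP1 (18, 23 and 28), siTAZ cells a pool against WWTR1 (19, 24 and 29), and siYAP+TAZ cells both pools (20, 25 and 30), so that they received more targeting siRNA in total than either single knockdown. Knockdown lasted 48 h, after which the cells spent 5 to 6 h on gelatin-coated plates before RNA was extracted. The study compared each knockdown with siControl. Its stated aim was to learn whether protein changes linked to invadopodia, the matrix-degrading protrusions of cancer cells, arose in transcription or after it. An siRNA pool lowers a transcript without removing it, and effects of a pool on other transcripts cannot be told apart from those of its target.

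The libraries held from 18696737 to 30107312 counted reads (median 22902846). Values below are normalized counts, that is reads scaled to a common library size after TMM normalization, unless another scale is named, and CPM stands for the count relative to the effective total of its library. YAP1 was 4202 to 4431 in siControl and 761 to 1013 in siYAP libraries 18 and 28, but 2764 in siYAP 23 (log2 fold change -1.51, SE 0.37, edgeR adjusted p = 0.099), and 1796 to 2240 in siYAP+TAZ (-1.06, adjusted p = 0.072). WWTR1 was 1579 to 1995 in siControl, 254 to 828 in siTAZ (-1.74, SE 0.31, adjusted p = 0.019) and 1123 to 1284 in siYAP+TAZ (-0.62, adjusted p = 0.20). Both targets were therefore lower in every library that received their pool, and WWTR1 was less reduced in siYAP+TAZ than in siTAZ (1.13 higher on the log2 scale, adjusted p = 0.065). Of the line's markers, VIM lay between 1038 and 1435 CPM, CD44 between 812 and 1113 and the keratins KRT8 and KRT18 between 916 and 1212 and between 207 and 289. EPCAM lay between 10.3 and 17.2 CPM. Of the receptor genes of the triple-negative class, the progesterone receptor gene PGR had up to 7 reads, while ERBB2 lay between 88.1 and 124 CPM. The estrogen receptor gene ESR1 was not among the genes with counts here, nor was the cadherin gene CDH1. Of 3 markers of other cell types, the immune marker PTPRC had up to 6 reads, while the sum of PTPRC, the endothelial PECAM1 and the fibroblast collagen COL1A1 was 10.9 to 14.6 CPM in Control, 10.2 to 20.6 CPM in siControl, 17.2 to 17.3 CPM in siYAP, 18.4 to 28.7 CPM in siTAZ and 25.2 to 27.3 CPM in siYAP+TAZ. PECAM1 alone was 0.363 to 0.755 CPM in siControl, 0.595 to 1.004 CPM in the single knockdowns and 2.79 to 6.68 CPM in siYAP+TAZ, and COL1A1 was 9.71 to 19.8 CPM in siControl and 20.0 to 22.4 CPM in siYAP+TAZ. The part of these markers in the results below was not tested.

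With YAP and TAZ knocked down together, most of the ribosome biogenesis genes were lower than in siControl, each by a modest amount. Of the 40 genes 35 fell at an edgeR adjusted p of at most 0.05, 0 rose, and 37 had an unadjusted p under 0.05 (30.3% of all genes). Over all genes of the table, 8.39% fell and 9.97% rose by the same call, against 87.5% of the 40. The falls of the 35 genes ranged from 14.5% to 32.5% with a median of 24.8%, so 0 of the 40 passed a log2 fold change of 1 in size, a limit that 3.46% of all genes passed together with the adjusted p. The median log2 fold change was -0.41 over the 40 genes and -0.0048 over all genes. In 37 of the 40 every siYAP+TAZ library lay below every siControl library, an order found for 18.2% of all genes.

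The shift was seen in each library. The mean log2 CPM over the 39 genes without MYC was 6.82, 6.83 and 6.88 in Control libraries 16, 21 and 26, and 6.84, 6.85 and 6.85 in siControl 17, 22 and 27. It was 6.72, 6.70 and 6.78 in siYAP 18, 23 and 28, and 6.67, 6.49 and 6.63 in siTAZ 19, 24 and 29. The siYAP+TAZ libraries 20, 25 and 30 stood at 6.43, 6.48 and 6.41, below all others, with siTAZ 24 close to them. siTAZ 24 was also the library with the lowest WWTR1 count (254). As a share of all counted reads the 40 genes made up 0.848% ± 0.021 (SD, n = 3) in siControl, 0.847% ± 0.0074 in Control, 0.813% ± 0.018 in siYAP, 0.739% ± 0.032 in siTAZ and 0.653% ± 0.026 in siYAP+TAZ. In bulk RNA, fewer cells expressing a gene and less of its RNA per cell cannot be told apart.

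**Figure D1:**
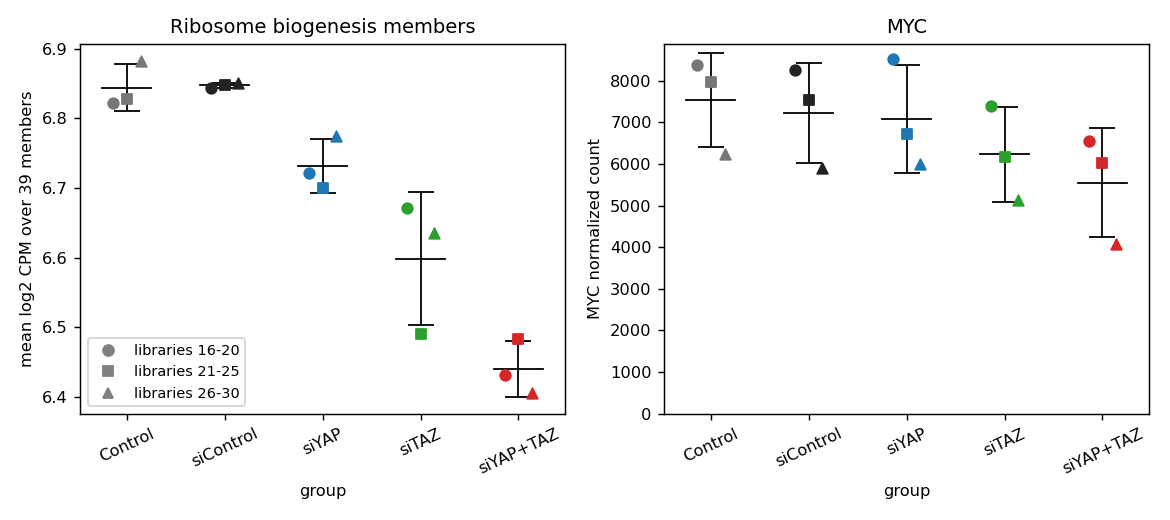
Left, mean log2 CPM over the 39 ribosome biogenesis genes in each library; right, MYC normalized count in each library (axis from 0). Lines and bars are the mean ± SD of 3 libraries, and symbols mark runs of consecutive library numbers. The siYAP+TAZ libraries lie lowest on the left (6.41 to 6.48), while on the right the MYC counts of all groups overlap and libraries 26 to 30 are the lowest of their group.

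MYC itself was not called. It stood at 8248, 7532 and 5892 in siControl 17, 22 and 27, and at 6551, 6023 and 4084 in siYAP+TAZ 20, 25 and 30. The values were 8374, 7957 and 6244 in Control, 8515, 6724 and 6008 in siYAP, and 7392, 6160 and 5131 in siTAZ, in the order of library numbers. The groups overlapped, and in every group the library numbered 26 or above held the lowest count. The means were 7224 ± 1208 (SD, n = 3) in siControl and 5553 ± 1299 in siYAP+TAZ, a log2 fold change of -0.38 (SE 0.21, 95% interval -0.78 to 0.024, edgeR adjusted p = 0.25). Within the runs of consecutive numbers 16 to 20, 21 to 25 and 26 to 30, which the labels do not describe, the log2 CPM of MYC was 0.33, 0.32 and 0.53 lower in siYAP+TAZ than in siControl. The median of the 40 genes differed by -0.43, -0.37 and -0.44 in the same runs. All 40 were lower in each of the 3, an order that was not counted over all genes. Without a term for the run, the interval of MYC reaches from no change to a larger fall than the median of the 40 genes. With the run as a block MYC was called (-0.39, edgeR adjusted p = 2.3e-05), so the call depended on that term, and no source used here says what the runs are.

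For 34 of the 40 genes a promoter was given in the RefSeq table for GRCh38.p14, 300 bases around the start of the transcript. The E-box CACGTG, the sequence that MYC with MAX binds best and that reads the same on both strands, was in a promoter of 14 of the 34 genes (41.2%) and of 2396 of the 27305 genes in that table (8.77%). The TEAD core GGAATG was searched on both strands and cannot overlap the E-box by more than a base. It was in 6 of the 34 (17.6%) and in 16.7% of all. Of 108 genes with a promoter in the list of further ribosome biogenesis genes used below, 33 (30.6%) held the E-box and 9 (8.33%) the TEAD core. The genes of the whole set were not matched to the 34 for base composition or expression, and sites outside the 300 bases were not searched. Promoters with E-box are shown for the 3 genes that had the smallest adjusted p in siYAP+TAZ among those holding it, with the E-box in capitals, read 5′ to 3′ on the strand of the gene. The stretches are chr10:68956397-68956696 on the plus strand for DDX21, chr4:2963357-2963656 on the minus strand for NOP14 and chr6:41921249-41921548 on the plus strand for BYSL.
DDX21: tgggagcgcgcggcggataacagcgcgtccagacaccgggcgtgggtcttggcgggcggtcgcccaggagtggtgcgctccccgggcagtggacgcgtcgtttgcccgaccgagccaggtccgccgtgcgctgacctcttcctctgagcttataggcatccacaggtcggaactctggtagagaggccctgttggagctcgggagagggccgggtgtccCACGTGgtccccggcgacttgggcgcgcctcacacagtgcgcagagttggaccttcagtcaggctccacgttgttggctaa
NOP14: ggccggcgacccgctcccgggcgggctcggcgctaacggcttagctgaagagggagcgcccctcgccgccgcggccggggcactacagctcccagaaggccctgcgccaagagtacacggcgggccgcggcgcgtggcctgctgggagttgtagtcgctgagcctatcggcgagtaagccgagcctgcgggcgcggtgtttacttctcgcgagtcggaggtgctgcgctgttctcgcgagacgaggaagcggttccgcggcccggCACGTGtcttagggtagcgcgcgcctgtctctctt
BYSL: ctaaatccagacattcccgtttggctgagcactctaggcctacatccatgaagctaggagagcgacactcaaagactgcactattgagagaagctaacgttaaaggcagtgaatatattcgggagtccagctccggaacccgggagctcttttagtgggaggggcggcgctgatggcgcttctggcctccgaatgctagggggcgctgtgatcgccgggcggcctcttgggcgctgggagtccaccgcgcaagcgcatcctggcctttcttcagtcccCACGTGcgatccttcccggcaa
The E-box began 31 bases before the start site of the promoter shown for DDX21, and 15 and 28 bases after that of NOP14 and BYSL. Another promoter given for DDX21 (chr10:68955920-68956219) held no E-box. The BYSL promoter also held the TEAD core. In siYAP+TAZ the median log2 fold change was -0.41 for the 14 genes with an E-box in this window, of which 13 fell, and -0.41 for the 20 without, of which 17 fell. The 6 genes with the TEAD core (BYSL, GAR1, NHP2, NPM1, PPAN and WDR75) all fell, with a median of -0.44, beside 24 of the 28 without it and a median of -0.41. The presence of a motif is a description of the sequence and does not show that a factor binds there.

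Of the RNA polymerase I genes, the core subunits fell and the initiation factors were not called. POLR1A, the largest subunit (chr2:86020216-86106155), was 5575, 5442 and 5969 in Control, 5908, 5622 and 5921 in siControl, 5434, 5229 and 5831 in siYAP, 5153, 5130 and 5228 in siTAZ, and 4830, 5115 and 4700 in siYAP+TAZ, a fall of 16.1% (log2 fold change -0.25, SE 0.065, edgeR adjusted p = 0.010, 0.051 without siYAP+TAZ 30). POLR1B, the second largest subunit, and POLR1C, a subunit shared with RNA polymerase III, fell by 23.9% and 24.5%. UBTF, which binds the ribosomal DNA promoter (chr17:44205033-44221626), was 3892, 3981 and 4339 in Control, 3897, 3888 and 4146 in siControl, 4056, 3781 and 3939 in siYAP, 3982, 3601 and 3941 in siTAZ, and 3532, 3822 and 3932 in siYAP+TAZ. RRN3, the factor that makes the polymerase competent to start (chr16:15060033-15094311), was 801, 745 and 722 in Control, 809, 794 and 671 in siControl, 708, 760 and 669 in siYAP, 857, 698 and 737 in siTAZ, and 742, 749 and 641 in siYAP+TAZ. The groups of both overlapped. Their log2 fold changes were -0.08 (95% interval -0.22 to 0.056, adjusted p = 0.49) for UBTF and -0.10 (-0.29 to 0.097, adjusted p = 0.57) for RRN3, and neither interval reaches the median of the 40 genes (-0.41). For RRN3 25.3% of its stretches of 50 exonic bases also occur in other annotated genes, among them the copy RRN3P2, so its count is uncertain.

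The transcripts of the 6 listed proteins of the particles that modify ribosomal RNA all fell. These are FBL (fibrillarin), the methyltransferase of box C/D particles, with its core partners NOP56 and NOP58, and DKC1 (dyskerin), the pseudouridine synthase of box H/ACA particles, with NHP2 and GAR1. NOP56 (chr20:2652593-2658393) was 10022, 9981 and 7902 in Control, 8089, 8241 and 8438 in siControl, 8846, 7722 and 7207 in siYAP, 7486, 6277 and 6602 in siTAZ, and 5859, 5776 and 5510 in siYAP+TAZ. Its siYAP+TAZ libraries lay below those of all other groups, 30.8% under siControl (log2 fold change -0.53, SE 0.095, adjusted p = 6.7e-04). DKC1 (chrX:154762742-154777689) was 5508, 5875 and 6130 in Control, 5535, 5709 and 5839 in siControl, 5207, 5399 and 5541 in siYAP, 5459, 5305 and 5220 in siTAZ, and 4176, 4597 and 4307 in siYAP+TAZ, a fall of 23.4% (adjusted p = 3.8e-04). The single knockdowns of DKC1 stood close to siControl, while those of NOP56 lay partly between. FBL fell by 21.2%, NOP58 by 24.6%, GAR1 by 22.2% and NHP2 by 18.2%. NHP2 had the weakest support of the 35 (adjusted p = 0.043) and lost the call without any 1 of 5 libraries (siControl 17, 22 or 27, siYAP+TAZ 20 or 25, adjusted p 0.064 to 0.20).

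Of the 4 nucleolar chaperones and scaffolds 3 fell. NPM1 (nucleophosmin), which shuttles between nucleolus and cytoplasm, averaged 34584 ± 840 (SD, n = 3) in siControl and 24951 ± 2011 in siYAP+TAZ, a fall of 27.9% (adjusted p = 6.0e-04). NCL (nucleolin) went from 25884 ± 235 to 19465 ± 1732, and NOLC1, a scaffold of small nucleolar ribonucleoproteins, from 12219 ± 892 to 9085 ± 864. NPM3, a relative of NPM1, was 1298 ± 109 and 1014 ± 64.8, with groups that did not overlap but an adjusted p of 0.060 (log2 fold change -0.36, SE 0.13).

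All 9 genes of the small subunit processome, the large particle that assembles on the nascent precursor RNA, fell. WDR43 (chr2:28894667-28948219) had the largest change among them. It was 4008, 4416 and 4929 in Control, 4487, 4401 and 4641 in siControl, 3672, 3861 and 4093 in siYAP, 3694, 3292 and 3931 in siTAZ, and 2876, 3191 and 3287 in siYAP+TAZ, a log2 fold change of -0.53 (SE 0.085, adjusted p = 2.5e-04). DDX21, an RNA helicase of the nucleolus (chr10:68956135-68985068), was 14637, 15576 and 16453 in Control, 16159, 16473 and 15710 in siControl, 14422, 14698 and 14632 in siYAP, 13726, 12435 and 13449 in siTAZ, and 10983, 12102 and 10858 in siYAP+TAZ, a fall of 29.8% (adjusted p = 5.0e-05). The siControl, siYAP, siTAZ and siYAP+TAZ libraries of DDX21 did not overlap and stood in that order, while Control overlapped siYAP and siControl. NOP14 (chr4:2937933-2963406) was 4407, 4579 and 4568 in Control, 4521, 4694 and 4368 in siControl, 4332, 4208 and 4116 in siYAP, 4081, 3613 and 3622 in siTAZ, and 3206, 3433 and 3003 in siYAP+TAZ (adjusted p = 7.4e-05).

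DDX10, a helicase of the same stage (chr11:108665058-108940999), had the smallest fall of the 35 genes. It stood at 2836, 2872 and 2891 in Control, 2755, 2853 and 2797 in siControl, 2632, 2738 and 2867 in siYAP, 2552, 2365 and 2589 in siTAZ, and 2319, 2519 and 2347 in siYAP+TAZ, 14.5% lower than siControl with no overlap (log2 fold change -0.23, SE 0.063, adjusted p = 0.017). It lost the call without siControl 22, siYAP+TAZ 20 or siYAP+TAZ 30 (adjusted p 0.068 to 0.073). UTP4, UTP15, WDR75, UTP20 and the U3 particle protein RRP9 fell by 25.9%, 27.1%, 25.0%, 20.9% and 25.3%, and UTP20 lost the call without siYAP+TAZ 30 (adjusted p = 0.053).

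The 5 genes of later 40S maturation fell as well. BYSL (bystin), which joins pre-40S particles, went from 4707 ± 299 (SD, n = 3) to 3275 ± 319, a fall of 30.4% (adjusted p = 1.8e-04). NOB1, the endonuclease that makes the final cut of 18S ribosomal RNA (chr16:69741871-69754926), was 1561, 1674 and 1820 in Control, 1807, 1720 and 1769 in siControl, 1667, 1666 and 1871 in siYAP, 1609, 1529 and 1549 in siTAZ, and 1269, 1343 and 1240 in siYAP+TAZ, a fall of 27.3% (adjusted p = 2.3e-04). Its siYAP and siControl libraries overlapped, with 2 siYAP libraries below the siControl range and 1 above it. PNO1, the partner of NOB1, fell by 24.6%, RRP12 by 24.0% and LTV1, a pre-40S factor released before the last steps, by 19.5%. LTV1 (chr6:143843338-143863812) was 672, 717 and 681 in Control, 657, 702 and 651 in siControl, 624, 638 and 595 in siYAP, 619, 650 and 708 in siTAZ, and 522, 566 and 529 in siYAP+TAZ, so its siTAZ libraries lay at the siControl level.

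The 60S assembly genes held the largest falls, with a median log2 fold change of -0.51 and 9 of 10 called. NIP7 (chr16:69337996-69343106), needed for processing of the precursor RNA, was 2134, 2194 and 2282 in Control, 2148, 2328 and 2244 in siControl, 1997, 1962 and 2125 in siYAP, 1755, 1028 and 1604 in siTAZ, and 1478, 1605 and 1451 in siYAP+TAZ. Its fall in siYAP+TAZ was 32.5% (log2 fold change -0.57, SE 0.13, adjusted p = 0.0057), and siTAZ 24 was the lowest of the 15 libraries. RRS1, which brings the 5S particle to the pre-60S, was 2080, 2244 and 2218 in Control, 2060, 2105 and 2269 in siControl, 1866, 1806 and 1786 in siYAP, 1904, 1589 and 1622 in siTAZ, and 1484, 1490 and 1431 in siYAP+TAZ, a fall of 31.5% (SE 0.074 on the log2 scale, adjusted p = 5.5e-05).

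NOP16 (chr5:176383946-176388927) had the smallest adjusted p of the 40 genes. It was 1606, 1695 and 1699 in Control, 1670, 1651 and 1650 in siControl, 1568, 1538 and 1677 in siYAP, 1409, 1290 and 1391 in siTAZ, and 1174, 1191 and 1101 in siYAP+TAZ, a fall of 30.3% (log2 fold change -0.52, SE 0.066, adjusted p = 2.9e-05). RRP1 (chr21:43789513-43805293) was 2465, 2378 and 2701 in Control, 2380, 2513 and 2570 in siControl, 2188, 2015 and 2241 in siYAP, 2038, 1838 and 2090 in siTAZ, and 1655, 1767 and 1775 in siYAP+TAZ, also 30.3% lower (adjusted p = 7.9e-05). In both, the siYAP+TAZ libraries lay below all others and siTAZ lay between them and siControl.

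The transcripts of PES1, BOP1 and WDR12 fell by 23.1%, 23.8% and 16.3%. Their proteins form the PeBoW complex, required for processing of the large subunit RNA. WDR12 (chr2:202874261-203014798) was 1177, 1331 and 1421 in Control, 1361, 1301 and 1354 in siControl, 1292, 1292 and 1459 in siYAP, 1280, 1098 and 1297 in siTAZ, and 1142, 1112 and 1109 in siYAP+TAZ (log2 fold change -0.26, SE 0.083, adjusted p = 0.038), and it lost the call without any 1 of the 6 libraries of that comparison (adjusted p 0.067 to 0.11). GNL3 (nucleostemin), a nucleolar GTPase, was 5005, 5122 and 4767 in Control, 4956, 4952 and 4542 in siControl, 4448, 4796 and 4431 in siYAP, 4238, 3751 and 4077 in siTAZ, and 3509, 3821 and 3571 in siYAP+TAZ, a fall of 24.6% (adjusted p = 4.4e-04). PPAN, a pre-60S factor, fell by 29.7% (adjusted p = 0.016) and lost the call without siControl 17, siControl 22 or siYAP+TAZ 30 (0.051 to 0.084).

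NOP2, a cytosine methyltransferase of large subunit RNA (chr12:6556863-6568691), could hardly be measured. It had 28.97, 22.15 and 14.46 normalized counts in Control, 20.41, 24.97 and 26.82 in siControl, 18.39, 17.48 and 16.43 in siYAP, 12.06, 5.86 and 11.57 in siTAZ, and 17.84, 15.04 and 11.93 in siYAP+TAZ, and it had as few as 5 reads in a library. Its log2 fold change of -0.69 was the most negative of the 40 but had an SE of 0.31 and was not called (adjusted p = 0.14). In the GENCODE 44 annotation 54.4% of its exonic bases overlap another gene on the same strand, and its level in siControl was 0.22 CPM per kb of exon, against 5.89 for the next lowest member. The level of NOP2 is therefore uncertain. The same limit applies to PPAN (49.2% of exonic bases, overlapped by P2RY11 and the readthrough PPAN-P2RY11), LTV1 (34.7%) and RRS1 (11.3%). Another 6 genes (POLR1C, NHP2, NOP14, NOB1, NIP7 and NOP16) overlap a gene on the opposite strand over more than 10% of their exonic bases, and the sources used here do not say whether reads were counted by strand. Of the 29 genes with none of these limits 26 fell, with a median log2 fold change of -0.41.

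**Figure D2:**
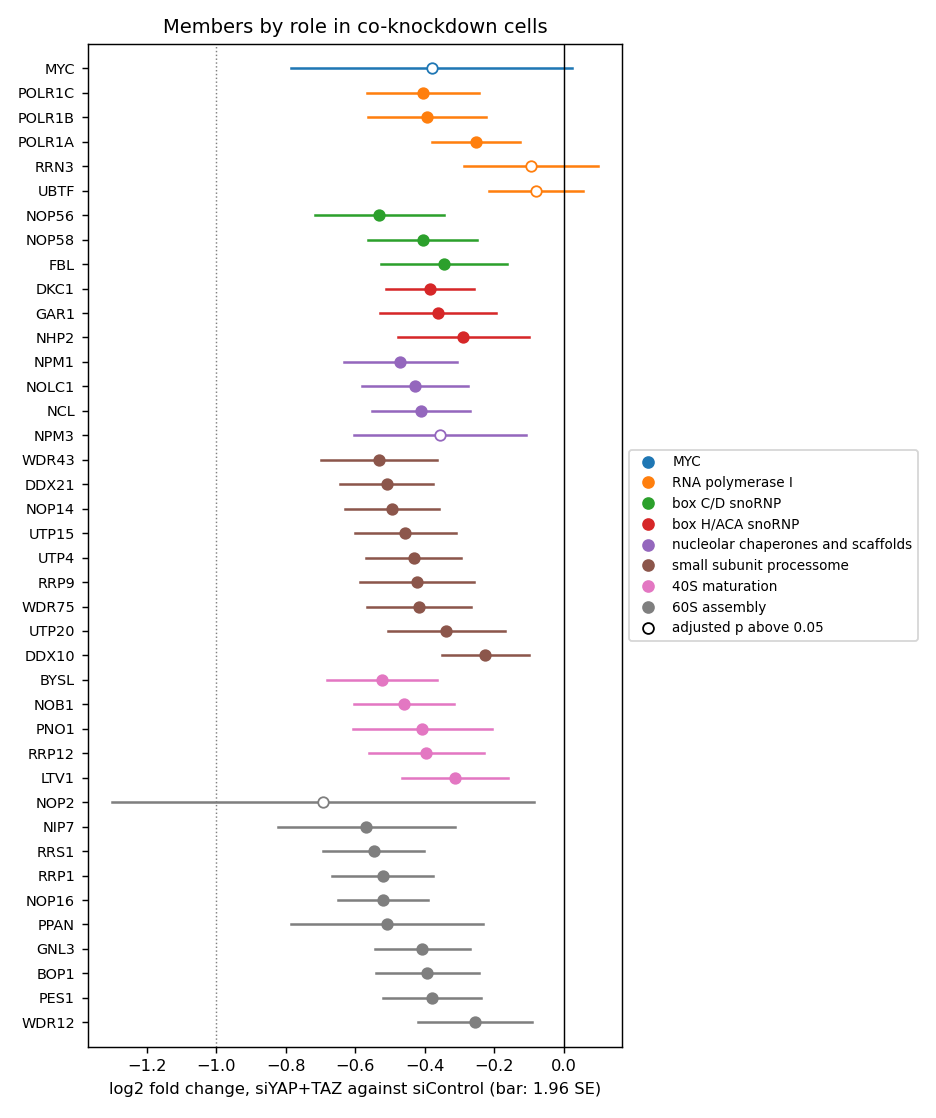
Log2 fold change of each of the 40 genes in siYAP+TAZ against siControl (3 libraries each), with its 95% interval, coloured by role, open where the adjusted p was above 0.05 and with a dotted line at -1. All 40 points lie below 0, the 5 open ones are MYC, RRN3, UBTF, NPM3 and NOP2, and no point reaches the dotted line.

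Compared per length of exon in siControl, the most abundant of the 40 were NPM1 at 176 CPM per kb, FBL at 140 ± 5.41 (SD, n = 3), NOLC1 at 130 ± 9.50 and NCL at 123 ± 1.12. BYSL stood at 103, BOP1 at 90.4 and MYC at 50.01 ± 8.36. Near the low end were DDX10 at 6.56 ± 0.11 and WDR12 at 5.89 ± 0.14, while the NOP2 value is given above. FBL and NOLC1 did not differ beyond their spread, whereas NPM1 stood above both. Annotated exon length enters these levels, and genes with long untranslated ends or rare long isoforms read low on this scale.

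The single knockdowns gave fewer calls among the 40 genes. They share the siControl libraries with each other and with the co-knockdown, so their values are set side by side. In siYAP 0 of 40 genes were called, where 0.456% of all genes fell and 0.477% rose, and 6 had an unadjusted p under 0.05 against 11.9% of all genes (RRS1, BYSL, RRP1, WDR43, BOP1 and DDX21). The median log2 fold change was -0.11 (-0.063 with library size alone), and the lowest adjusted p was 0.15 for RRS1. In 19 of the 40 genes the siYAP libraries all lay below siControl, against 9.86% of all genes. YAP1 was incompletely lowered in siYAP 23, and without this library the count remained 0 and the median was -0.08. With the run of library numbers as a block 4 genes were called.

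In siTAZ 6 of the 40 genes fell and 0 rose, where 0.695% of all genes fell and 1.34% rose. They were NIP7 (34.6% lower, adjusted p = 0.021), RRS1 (20.4%, 0.024), RRP1 (20.1%, 0.026), NOP16 (17.7%, 0.031), WDR75 (20.1%, 0.032) and DDX21 (18.1%, 0.034), all factors of 60S assembly or of the small subunit processome. WDR75 (chr2:189441446-189475552) was 1976, 1929 and 2123 in Control, 1954, 1901 and 2044 in siControl, 1721, 1795 and 1865 in siYAP, 1623, 1411 and 1677 in siTAZ, and 1388, 1460 and 1571 in siYAP+TAZ. Its siTAZ and siYAP+TAZ libraries overlapped. The median over the 40 was -0.22, 30 had an unadjusted p under 0.05 (16% of all genes), and in 31 the siTAZ libraries all lay below siControl, against 10.2% of all genes. The count rested on single libraries, since it was 0 without siControl 17 or siControl 22, 1 without siControl 27 or siTAZ 24, 3 without siTAZ 29 and 14 without siTAZ 19. It was also 0 when only the siTAZ and siControl libraries entered the fit, but 11 with DESeq2 and 24 with the run as a block.

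**Figure D3:**
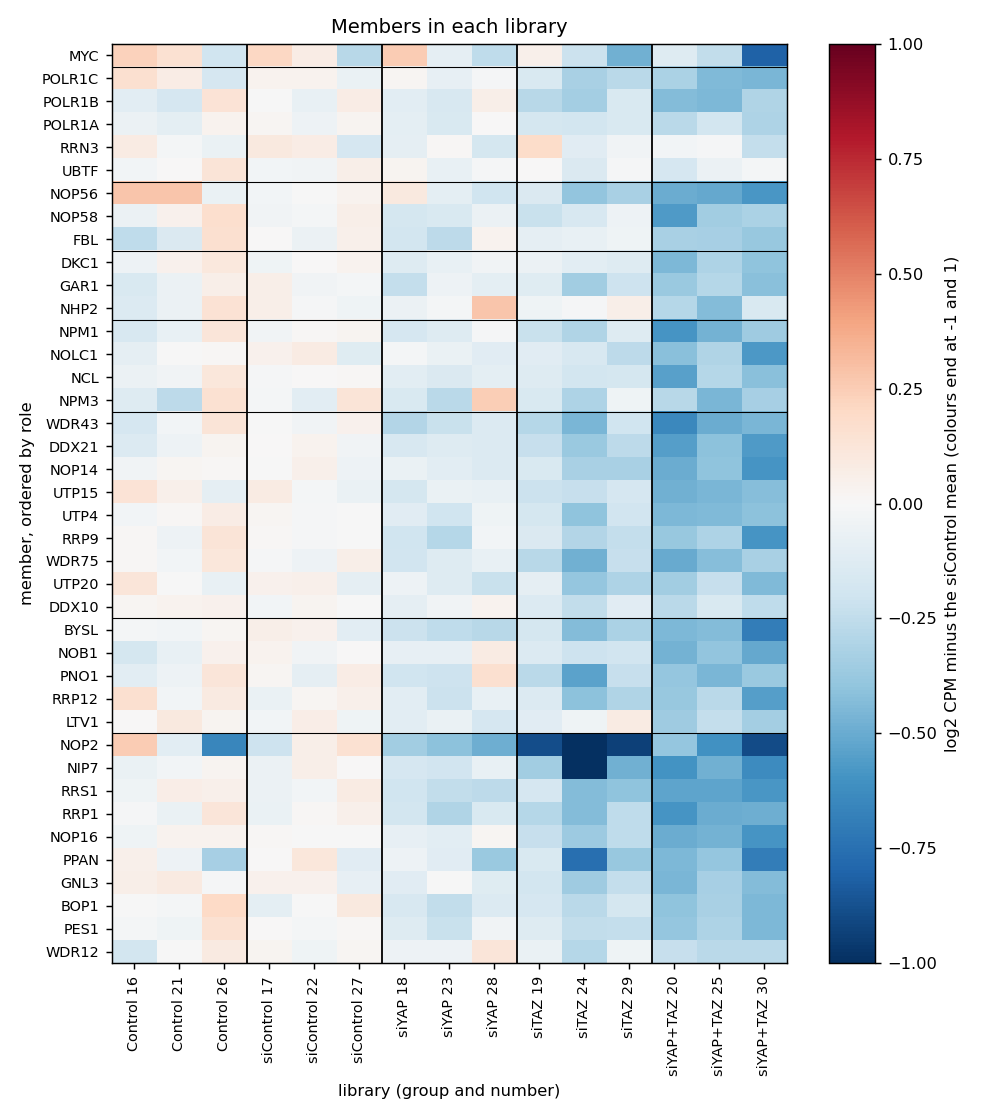
Log2 CPM of each of the 40 genes (rows, ordered by role) in each library (columns, ordered by group) minus the mean of the 3 siControl libraries, with colours that end at -1 and 1. The siYAP+TAZ columns are blue in nearly every row, siTAZ 24 is the darkest of the siTAZ columns, and UBTF and RRN3 stay pale.

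Between the groups themselves, the fitted level was lowest in siYAP+TAZ among the 3 knockdowns for 38 of the 40 genes, the exceptions being NIP7 and NOP2, which were lowest in siTAZ. siTAZ lay below siYAP in 37, with FBL, LTV1 and RRN3 the other way, and in 9489 of all 18858 genes. The order of the 3 knockdowns was not counted over all genes. Tested directly, siYAP+TAZ was below siYAP in 19 genes and above it in 0, where 1.7% of all genes were lower and 3.43% higher, with a median of -0.31. The smallest adjusted p-values were those of NOP16 (27.5% lower, adjusted p = 3.8e-04), NOB1 (26.0%, 0.0016), NOP14 (23.8%, 0.0024), DDX21 (22.4%, 0.0038), NOP56 (27.9%, 0.0065) and GNL3 (20.3%, 0.0092). Of the 4 chaperones and scaffolds 3 (NPM1, NCL and NOLC1) were among the 19, as were POLR1B and POLR1C and 6 of the 9 processome genes. The count was 9 without siYAP 18 or without siYAP+TAZ 20, and 11 without siYAP 28. With the run as a block it was 34.

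siYAP+TAZ was below siTAZ in 4 genes and above it in 0, where 2.38% of all genes were lower and 3.06% higher. These were DKC1 (18.2% lower, adjusted p = 0.012), NOB1 (17.9%, 0.029), LTV1 (18.1%, 0.039) and NOP16 (15.3%, 0.042). The median was -0.19, and 23 genes had an unadjusted p under 0.05, against 19.3% of all genes. Leaving out any 1 of the 6 libraries left 0 to 2 called: 0 without siYAP+TAZ 20, 1 without siTAZ 29 or siYAP+TAZ 30, and 2 without siTAZ 19, siTAZ 24 or siYAP+TAZ 25. The count was 2 with library size alone or with only the compared groups in the fit, 7 under either filter on low counts, 11 with DESeq2 and 20 with the run as a block. Between siYAP and siTAZ 0 of 40 genes were called in either direction, where 0.17% of all genes were higher in siYAP and 0.472% lower, while DESeq2 called 2 of the 40 and the fit with the run as a block 4. The median was 0.12 higher in siYAP, and 11 genes, all higher in siYAP, had an unadjusted p under 0.05 (13.7% of all genes), led by NIP7 (log2 difference 0.47, SE 0.13, adjusted p = 0.12) and NOP16 (0.22, adjusted p = 0.13).

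The interaction term asks whether the co-knockdown departed from the sum of the 2 single effects on the log2 scale. It was called for 0 of the 40 genes, where 0.0106% of all genes were called, all of them higher, and its median was -0.07, or -0.12 without siTAZ 24, -0.021 without siTAZ 19 and -0.022 without siYAP 28. An unadjusted p under 0.05 was found for 4 genes, against 5.85% of all genes. By estimate, NHP2 (-0.36, SE 0.14, edgeR adjusted p = 0.72), NOB1 (-0.26, 0.75) and DKC1 (-0.21, 0.81) lay below the sum and NOP2 (1.02, 0.82) above it. None of these departures was called. The SE was 0.10 for NOB1, 0.091 for DKC1 and 0.46 for NOP2, and the weaker loss of WWTR1 in siYAP+TAZ than in siTAZ enters the same term.

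**Figure D4:**
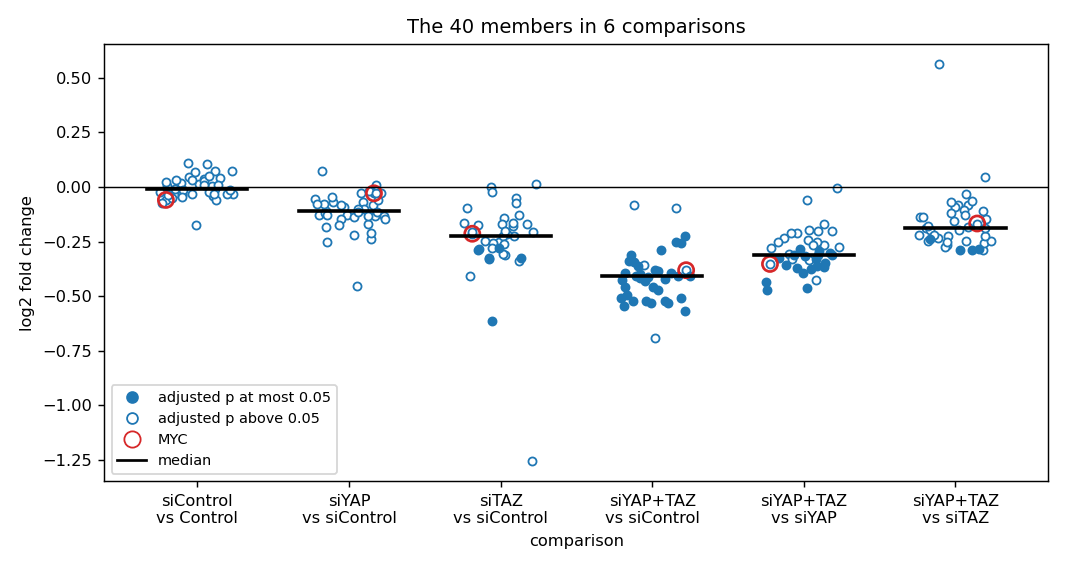
Log2 fold change of the 40 genes in 6 comparisons, filled where the adjusted p was at most 0.05, with MYC ringed and the median as a line. The median is -0.01 for siControl against Control and, against siControl, -0.11 with YAP, -0.22 with TAZ and -0.41 with both knocked down, while siYAP+TAZ lies at -0.31 against siYAP and at -0.19 against siTAZ.

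No difference larger than the spread between libraries was found between the transfected and the untransfected control cells. Between siControl and Control 0 of 40 were called by edgeR, as were 0% of all genes, 0 were called by DESeq2, and 0 of the 40 had an unadjusted p under 0.05, as did 2.11% of all genes. Their median was -0.01 and their range -0.17 (NOP56) to 0.11 (NOP2). The untransfected cells are a reference that shares no library with siControl. Against them 32 of the 40 genes fell in siYAP+TAZ and 0 rose (9.07% and 10.4% of all genes), with a median of -0.44, and MYC was 26.3% lower without being called (adjusted p = 0.17). The 3 genes called against siControl and not against Control were NHP2 (adjusted p = 0.053), PPAN (0.053) and WDR12 (0.069). NOP56 was the gene furthest below Control (38.6% lower, adjusted p = 4.8e-05). In siTAZ 10 genes fell against Control (1.3% of all genes, with 2.11% higher), NIP7, RRS1, RRP1, NOP16 and WDR75 again and NOP56, UTP4, NOP14, RRP12 and GNL3, and in siYAP 0 were called (0.758% of all genes fell and 0.705% rose). The siTAZ count was 4 without Control 16, 2 without Control 21, 1 without siTAZ 24, 3 without siTAZ 29 and 14 without siTAZ 19. It was 0 with only the compared groups in the fit, 18 with DESeq2 and 26 with the run as a block. The siYAP count against Control was 1 with DESeq2 and 5 with the run as a block.

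Related genes were then taken from 4 lists. Of 125 further ribosome biogenesis genes 91 fell in siYAP+TAZ and 0 rose, where 8.39% of all genes fell and 9.97% rose, with a median log2 fold change of -0.33 and a range of -0.66 to 0.02. The smallest adjusted p-values were those of GTPBP4, a GTPase of pre-60S particles (-0.53, adjusted p = 2.4e-05), BRIX1, an rRNA-binding factor of the same particles (-0.47), EBNA1BP2 (-0.66), NOC3L (-0.63) and PAK1IP1 (-0.58). EBNA1BP2 went from 7340 ± 117 (SD, n = 3) in siControl to 4652 ± 219. In siTAZ 8 of the 125 fell (0.695% of all genes) and in siYAP 0 (0.456% of all genes), both with 0 higher and with medians of -0.17 and -0.12. In siYAP+TAZ 124 of the 125 had a negative log2 fold change, of which 91 were called. Of all 18858 genes 9537 had a negative one.

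Of 32 other MYC targets, which serve growth outside the nucleolus, 18 fell and 1 rose in siYAP+TAZ (8.39% and 9.97% of all genes), with a median of -0.37. CDC25A, a phosphatase of the cell cycle, fell most (-0.74, SE 0.093, adjusted p = 2.5e-05), followed in order of adjusted p by PPAT, the first enzyme of purine synthesis (-0.50), ODC1, ornithine decarboxylase of polyamine synthesis (-0.53), RCC1, the exchange factor of RAN (-0.42), and SLC7A5, an amino acid transporter (-0.50). SLC7A5 fell from 36701 ± 765 to 26039 ± 640 and ODC1 from 10521 ± 382 to 7264 ± 766. In the single knockdowns 1 gene of this list fell in each, where 0.456% of all genes fell in siYAP and 0.695% in siTAZ, namely SLC7A5 in siYAP (-0.41, adjusted p = 0.016) and ODC1 in siTAZ (-0.36, adjusted p = 0.026).

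The MYC network, the partners and regulators of MYC (19 of 20 listed genes in the table), had 4 genes called higher and 4 lower in siYAP+TAZ, where 9.97% of all genes rose and 8.39% fell, and a median of 0.05. MXD4 and MXI1, which pair with MAX and are known to oppose MYC, rose by 1.30 (SE 0.10, adjusted p = 2.0e-07) and 0.76 (adjusted p = 3.0e-04) on the log2 scale. MXD4 went from 884 ± 151 to 2180 ± 111 and MXI1 from 315 ± 3.40 to 534 ± 74.4. MLXIPL, a glucose-responsive factor of the same family, rose by 1.58 from 8.29 ± 2.03 to 24.4 ± 8.45 normalized counts (adjusted p = 0.0094). CIP2A, which protects the MYC protein from degradation, fell by 0.36, and WDR5, a cofactor of MYC on chromatin, by 0.32.

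Of the genes listed as repressed by MYC (5 of 6 in the table), 2 rose and 2 fell in siYAP+TAZ (9.97% and 8.39% of all genes). NDRG1, a stress-induced gene, rose by 1.75 (SE 0.18, from 5119 ± 1070 to 17169 ± 2469) and CDKN1A, the cyclin-dependent kinase inhibitor p21, by 0.97 (from 3209 ± 540 to 6266 ± 403). The growth arrest genes GADD45B and GADD45A fell by 0.86 and 0.59 on the log2 scale. CDKN1B was not called (0.24, adjusted p = 0.12). The list as a whole therefore had no common direction.

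**Figure D5:**
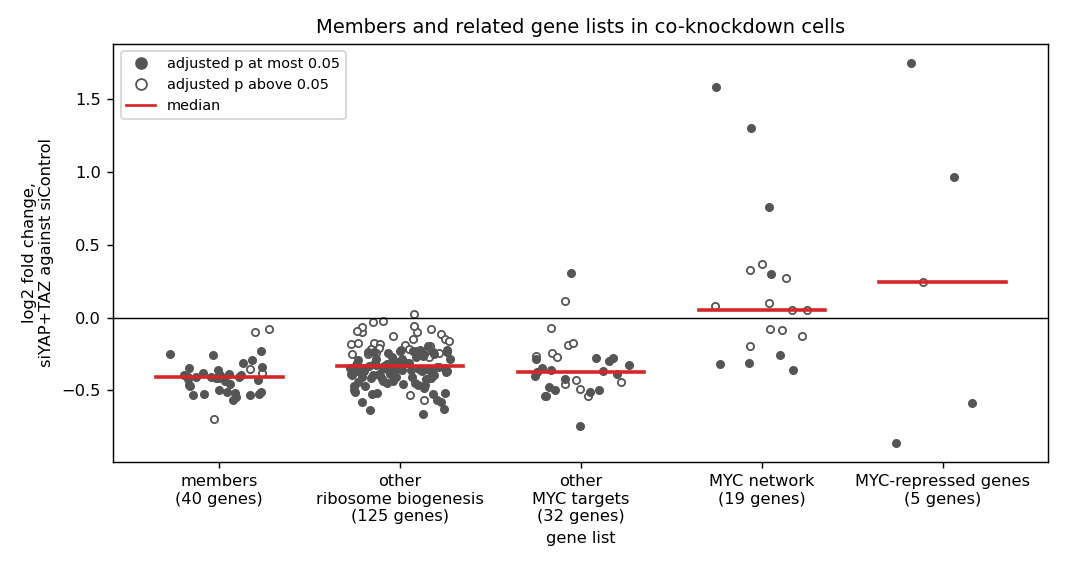
Log2 fold change in siYAP+TAZ against siControl for the 40 genes and 4 related lists, filled where the adjusted p was at most 0.05, with each list's median as a red line. The other ribosome biogenesis genes and MYC targets lie mostly below 0 like the 40 (medians -0.33 and -0.37), whereas the MYC network and the genes that MYC represses spread to both sides.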

How the data were processed

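RNA of 15 MDA-MB-231 libraries was analysed, 3 in each of 5 groups assigned by sample title. Per the labels and the methods of the study, the authors purified polyadenylated RNA, sequenced single reads, trimmed them with cutadapt, aligned them with STAR 2.4.2a to GRCh38, and counted over GENCODE release 34. The raw counts were deposited by the authors for every gene kept, that is with at least 5 reads in at least 1 library. All 18858 genes met that limit here. Whether counting used strand is not given in the sources used here. The deposited table also holds normalized and rlog values and the authors' own DESeq2 comparisons (fold changes and p-values), none of which was used.

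Counts were normalized by TMM (factors 0.943 to 1.03) and the test was the quasi-likelihood test of edgeR 4.0.16 (R 4.3.3) with robust estimation, group as the only term and all 15 libraries in the fit. P-values were two-sided and Benjamini-Hochberg adjusted over all 18858 genes, and a gene was called at an adjusted p of at most 0.05. Fold changes of all genes entered the background. Log2 CPM used a prior count of 2, and 95% intervals follow from the SE under a normal distribution. Alternatives used limma 3.58.1 (voom), DESeq2 1.42.0, other size factors, filters on low counts, a block and left-out libraries. The test was tried on simulated data first.

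The members and lists were chosen with earlier results of these data known, so no test was run over a list. Of the 40 genes, counts in every library are given for MYC, for the 5 most negative and the 5 largest log2 fold changes in siYAP+TAZ, and for up to 6 called in each other comparison (smallest adjusted p first). Of each list the 5 with the smallest adjusted p are named. Genes outside this rule that are named for their share of a count were picked after their values were seen. The study describes independent sets of experiments for each condition of the RNA sequencing. No source used here says which libraries form a set or how the sets were cultured. P-values therefore measure the spread between these libraries, which may be partly technical, and runs of library numbers are only a pattern of numbers. Overlaps between genes were computed from GENCODE 44, shared stretches from its transcripts with a length of 50 bases, and promoters were read from RefSeq (GRCh38.p14). Promoters of 6 members were not used here.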

Additional observations from a re-analysis of the deposited data

How the results depend on the processing

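In siYAP+TAZ against siControl 33 to 37 of the 40 genes were called under 9 other settings (35 here) and 30 to 33 with a library left out, and 29 of the 35 genes were called in every setting. NHP2, WDR12, PPAN, DDX10, POLR1A and UTP20 lost the call in at least 1. Against Control the range was 30 to 37. The counts under other settings, here and above, stand without the share of all genes called by the same setting. They therefore do not show whether the 40 genes gained or lost more calls than other genes. Of 600 values of single genes in siYAP+TAZ against siControl, 576 kept their direction and side of the threshold, 21 lost the call, 3 gained it and 0 changed sign. The interaction had 0 calls throughout. NOP2 had the fewest reads of the 40 genes, with 5 in its lowest library.

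With DESeq2 the counts were 11 for siTAZ against siControl, 11 for siYAP+TAZ against siTAZ, 2 for siYAP against siTAZ, 18 for siTAZ against Control and 1 for siYAP against Control (6, 4, 0, 10 and 0 here). With only the compared groups in the fit, 0 were called for siTAZ against siControl, 0 for siTAZ against Control and 2 for siYAP+TAZ against siTAZ, and fewer libraries then set the spread. For siYAP+TAZ against siTAZ, library size alone gave 2, and both filters on low counts (edgeR filterByExpr, or 10 reads in 3 libraries) gave 7, with fewer genes tested. Library size alone put the median of siYAP against Control at -0.055 and against siControl at -0.063 (-0.11 here for both). The cause of the other shifts was not tested. With a library left out, counts ranged from 0 to 14 for siTAZ against siControl, from 9 to 18 for siYAP+TAZ against siYAP (19 here), from 0 to 2 for siYAP+TAZ against siTAZ, from 0 to 1 for siYAP against siTAZ and from 1 to 14 for siTAZ against Control, and the interaction median from -0.12 (without siTAZ 24) to -0.021.

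A replicate block by run of library numbers raised the counts against siControl to 4 in siYAP, 24 in siTAZ and 37 in siYAP+TAZ, and the others to 34 for siYAP+TAZ against siYAP, 20 against siTAZ, 4 for siYAP against siTAZ, and 5 and 26 for siYAP and siTAZ against Control. With the block MYC was called in siYAP+TAZ (-0.39, edgeR adjusted p = 2.3e-05, against 0.25 without it and 0.15 to 0.57 under the other alternatives), in siTAZ (-0.22, adjusted p = 0.029) and in siYAP+TAZ against siYAP (-0.36, 1.9e-04), and not in siYAP+TAZ against siTAZ (0.065). NPM3 was called with the block in siYAP+TAZ (adjusted p = 4.0e-04) and with only the compared groups in the fit (0.013), and had adjusted p of 0.059 to 0.20 otherwise. The labels give no pairing. The deviations of libraries of the same run correlated above 0.1 in 21 of 30 pairs of libraries (range -0.03 to 0.35). This held in every run for siControl with siYAP (0.11 to 0.30) and siYAP with siYAP+TAZ (0.11 to 0.31), and not for siControl with siYAP+TAZ (0.04 to 0.27).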
